A study of Mus musculus with 59 samples.

Results

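The microglia genes described here were 29 genes that mark homeostatic and phagocytic microglia, the resident macrophages of the brain, together with the 3 chains of complement C1q. They were taken from the deposited table by symbol, through their Ensembl identifiers, and all 29 were among its 18088 genes and passed the filter on low values. RNA had been sequenced from the prefrontal cortex of 59 C57BL/6J mice at postnatal day 25, of which 30 carried the Dyrk1a+/I48X genotype, labelled heterozygous, and 29 were wild type (WT). Dyrk1a encodes a dual-specificity protein kinase. The mice had received vehicle, lithium or fluoxetine through the milk of the dam from day 3 to day 24, so pups of one litter shared a dose, and the labels do not name the litters. Crossing genotype, drug and sex gave 12 groups of 5 mice, apart from the 4 WT fluoxetine males. The allele is carried by every cell, so nothing in the design is restricted to microglia. The p-values below rest on the spread among these individual mice.

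Microglia enter the brain early in development from the yolk sac and maintain themselves there by division. The receptor Csf1r, bound by Csf1 and by neuron-derived Il34, keeps them alive, and the factors Spi1 (PU.1), Irf8 and Sall1 set their identity. In the healthy cortex they survey tissue with purinergic receptors such as P2ry12, tag synapses with C1q and clear debris through receptors that signal over ITAM adaptors such as Tyrobp. In whole tissue, fewer microglia and less RNA per cell cannot be told apart.

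Promoter sequence is described first, because PU.1, the product of the member Spi1, is the factor by which myeloid genes are usually defined. RefSeq promoter windows for the GRCm38.p6 assembly were found for 22 of the 29 members, and the 250 bases before each start were searched on both strands for the PU.1 motif GAGGAAGT and for its core GAGGAA, which lies inside it. The full motif stood in 2 of the 22 members, Inpp5d and C1qc, and in 2.79% of the 27025 genes in that table. The core stood in 14 of 22 members (63.6%) and in 25.9% of all genes. The pattern GGAANNGAA, on which PU.1 and Irf8 bind together, was in 0 of 22 members and in 8.01% of all genes. A match of letters is a description and shows no binding. The 5 windows below are from members on which later results turn, 5′ to 3′ in the direction of transcription, and capitals mark the motif or its reverse complement.
Inpp5d: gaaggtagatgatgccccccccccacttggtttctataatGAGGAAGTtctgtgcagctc
C1qc: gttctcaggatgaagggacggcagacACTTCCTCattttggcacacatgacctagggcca
P2ry13: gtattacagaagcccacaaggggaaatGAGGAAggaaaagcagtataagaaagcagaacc
Fcrls: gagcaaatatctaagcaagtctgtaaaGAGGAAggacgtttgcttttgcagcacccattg
Ctss: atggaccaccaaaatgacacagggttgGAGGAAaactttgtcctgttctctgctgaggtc

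In Inpp5d (chr1:87620252-87620311, plus strand) the full motif lay 13 to 20 bases upstream of the start, and in C1qc (chr4:136893076-136893135, minus strand) it lay 188 to 195 bases upstream on the opposite strand. The core lay 43 to 48 bases upstream in P2ry13 (chr3:59210898-59210957, minus strand), 139 to 144 in Fcrls (chr3:87263636-87263695, minus strand) and 159 to 164 in Ctss (chr3:95526595-95526654, plus strand). In what follows P2ry13 and Fcrls were lowest in the same 2 libraries in which Ctss was above the median of the others. A link between these motifs and the expression values was not tested.

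The members were expressed at very different levels per length. Over the 59 libraries the median normalized count per kilobase of exon was 1064 for Ctss (cathepsin S, a lysosomal protease), 823 for C1qb, 801 for C1qa, 533 for P2ry12 (an ADP receptor that steers microglial processes), 460.1 for C1qc and 427 for Tyrobp, the ITAM adaptor of Trem2. At the other end were Irf8 at 15.8 and Ptprc (the phosphatase CD45) at 6.08 per kilobase. The length used joins all annotated exons, 7055 bases for Irf8 and 18313 for Ptprc. Their median counts of 112 and 111 were like the 111 of Aif1, which came to 72.2 per kilobase over 1532 bases. Their low place thus depends on the annotated length. C1qb and C1qa, neighbours in that order, differed by less than their within-group SD of 0.16 on the log2 scale. Within groups most members varied little: leaving out the 2 libraries described next, the SD on the log2 scale was 0.09 for Fcgr3, 0.09 for Csf1r and 0.16 for P2ry12. Sall1, a zinc finger factor of microglial identity, was the exception at 0.55. P2ry12, Csf1r and Cx3cr1 overlap exons of genes on the other strand (Med12l, Hmgxb3 and Gm33858), and Itgam overlaps exons of Gm49368 on its own strand, so that its values may share reads with that gene. The library kit marks strand, and whether the counting used it is not given in the sources used here.

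**Figure D1:**
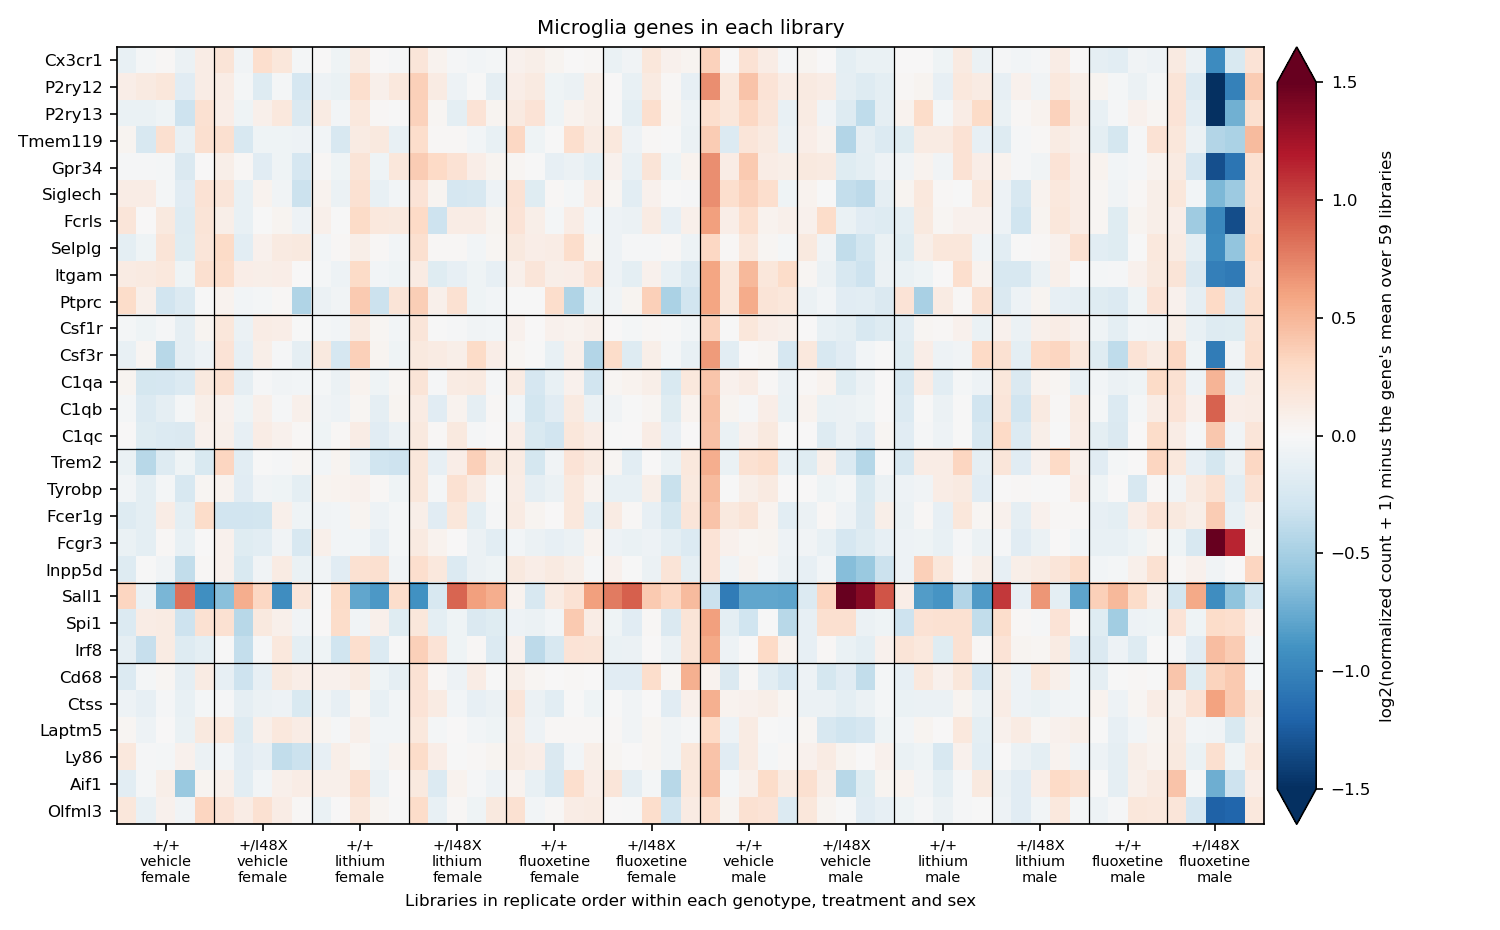
Each row is 1 of the 29 members, each column 1 of the 59 libraries; colour gives log2(normalized count + 1) minus the gene's mean over all libraries, cut at -1.5 and 1.5. The 2 dark columns in the heterozygous fluoxetine males are replicates 3 and 4, and the banded row is Sall1.

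Replicates 3 and 4 of the heterozygous fluoxetine males stood apart from the other 57 libraries. Results without them are given where stated, and all other results include them. The surface receptors of resting microglia were low in both. P2ry12 stood at 451 and 651 normalized counts in replicates 3 and 4, against 1109.7 to 2141 in the other 57, which is 0.331 and 0.478 times their median. The ADP receptor P2ry13 stood at 92.4 and 189.8 against 242 to 401, and the lysophosphatidylserine receptor Gpr34 at 139 and 161 against 291 to 566. Both libraries thus lay below every other mouse for 3 purinergic or lipid receptors. The fractalkine receptor Cx3cr1 (627 and 1025 against 1082 to 1531), the Fc receptor-like gene Fcrls (451 and 350.1 against 607 to 1345) and Itgam, the CD11b chain of complement receptor 3 (262 and 257 against 432 to 809), were also below all 57. So were Tmem119 (376 and 367 against 378 to 712), the lectin Siglech (210.4 and 229 against 256 to 546), the P-selectin ligand Selplg (304 and 389.7 against 456 to 729.8) and the secreted matrix protein Olfml3 (220.4 and 225 against 419.5 to 645). Of the 10 surface receptors, 9 were below all 57 other libraries in both replicates, and the exception was Ptprc, at 140.3 and 97.4 against 80.9 to 172.

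Other members were high in the same mice. Fcgr3, an activating receptor for IgG that signals through Fcer1g, reached 1904 and 729 normalized counts in replicates 3 and 4 against 277 to 379.7, which is 6.06 and 2.32 times the median of the 57. It was the only member above all 57 in both. In replicate 3, C1qb at 1662 was above its range of 737 to 1227 in the 57, C1qa at 1196 above 692 to 1127 and Ctss at 2259 above 1274 to 2158. In replicate 4 the same 3 genes, at 967, 780.5 and 1958, lay inside those ranges. Spi1, at 92.4 and 91.3 against 53.0 to 118, and Csf1r, at 1952 and 1968 against 1879.5 to 2826, lay inside theirs in both. Csf1r was nonetheless low in its range in both, under its median of 2226 over the 59 libraries, and Csf3r was below all 57 in replicate 3 only. The surface receptors were thus low while neither Spi1 nor any C1q chain fell below the other 57 libraries. In all, 10 of 29 members (34.5%) were below all 57 in both libraries, where 10.9% of the 17901 genes tested were, and 1 of 29 (3.45%) was above, where 14.5% of all genes were.

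**Figure D2:**
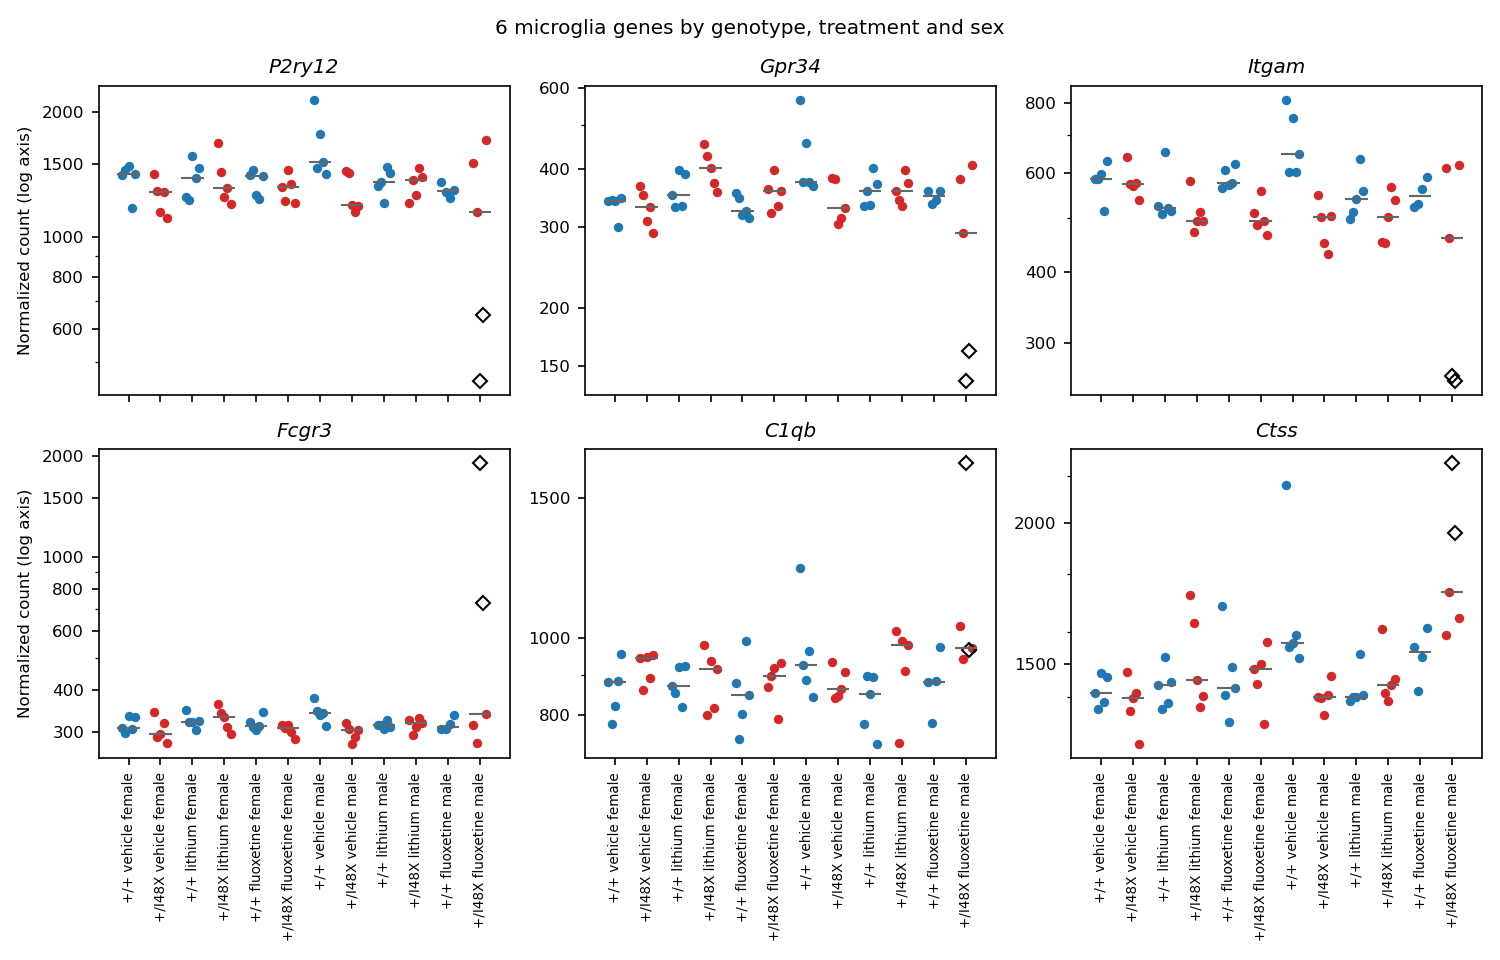
Normalized counts on a log axis for 6 members in the 12 groups; blue points are WT mice, red points heterozygous mice, open diamonds replicates 3 and 4 of the heterozygous fluoxetine males, and grey lines group medians. The diamonds lie below all other points for P2ry12, Gpr34 and Itgam and above all others for Fcgr3.

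The same 2 libraries differed beyond microglia. Fkbp5, a glucocorticoid-induced cochaperone, stood at 8496 and 3668 against 696 to 1354, and 8 of 12 glucocorticoid-responsive genes were above all 57 others in replicate 3 and 4 of 12 in replicate 4, where 26.0% and 18% of all genes tested were. Of 16 genes of disease-associated microglia, 7 were above all 57 in replicate 3 and 3 in both, the latter near the 14.5% of all genes, among them Ch25h, an oxysterol-forming enzyme, at 71.2 and 30.4 against 6.16 to 22.5. Tgfb1, a signal for the resting microglial state, stood at 319 and 232 against 111 to 162. Markers of blood cells were not high in them: of the monocyte and neutrophil list only 2 of 10 genes passed the filter, and Ly6c2 (4.45 and 4.06 against 0 to 19.8) and Ccr2 (11.1 and 14.2 against 8.89 to 40.4) lay within the other libraries. Of 8 lymphocyte genes 2 passed the filter, and 0 were above all 57 in either replicate. Of the 10 border macrophage genes, 3 were above all 57 in replicate 3 (Mrc1, Lyve1 and Stab1), near the share of all genes, and 0 in replicate 4. The part of these genes in the microglial values was not tested.

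Between genotypes under vehicle, 2 of the 29 members passed the test, a limma fit to log2(normalized count + 1) with adjusted p under 0.05, where 13.1% of all genes tested did. Siglech fell and Sall1 rose in heterozygous mice. Siglech ran from 299 to 546 with a median of 376 normalized counts in 10 WT mice and ran from 256 to 383 with a median of 317 in 10 heterozygous mice, a log2 change of -0.28 ± 0.09 (SE; limma adjusted p = 0.0345). The ranges overlapped, and 8 of 10 heterozygous mice lay below the WT mean. For Sall1 the lowest, median and highest values were 518, 645 and 1896 in WT and 559, 1332 and 3109 in heterozygous mice, a change of 0.77 ± 0.24 (SE; limma adjusted p = 0.0340). The members' median change was -0.09, and 26 of 29 estimates were below 0. These 29 estimates come from the same mice, and the share of all genes below 0 is not given here. Without the 2 libraries that stand apart, which changes no vehicle mouse but lowers the estimated spread, 7 members passed: P2ry12, Siglech, Itgam, Ptprc, Fcgr3 and Ctss as lower and Sall1 as higher. The share of all genes called in that fit is not given here, so the 7 cannot be set against the 13.1%. The call was lost for both Siglech and Sall1 when only the vehicle groups were fitted. It was also lost for both without any 1 of 9 vehicle mice, namely heterozygous females 2, 3 and 5, heterozygous males 3 and 4, WT females 2, 3 and 5 and WT male 2. Siglech lost it without WT male 1 or 3 as well, and Sall1 without heterozygous male 5. Of 10 olfactory bulb genes 9 rose in this contrast, with a median change of 1.74, and with their mean as a covariate neither member passed, at -0.24 for Siglech and 0.07 for Sall1.

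Within males the genotypes differed more widely. Of the 29 members 9 fell and 1 rose in heterozygous vehicle males, 10 in all, a share near the 36.7% of all genes tested. The members were thus not called more often than other genes, and their values follow as a description. Among the surface receptors, Itgam measured 809, 602, 752, 604 and 649 normalized counts in WT males 1 to 5 and 548, 502, 452, 432 and 503 in heterozygous males 1 to 5. Every heterozygous male lay below every WT male, with a log2 change of -0.48 ± 0.14 (SE; limma adjusted p = 0.00478). In this contrast 4 of the 29 members did not overlap. The share of all genes without overlap was not counted, so such separation is not shown to be particular to the members. Ptprc measured 172, 128, 167, 129.8 and 128 in WT and 107, 109.9, 101, 102 and 97.1 in heterozygous males, again without overlap, a change of -0.47 ± 0.14 (SE; limma adjusted p = 0.00777). Siglech fell by 0.46 on the log2 scale (limma adjusted p = 0.00304), with overlapping ranges.

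Csf1r, the survival receptor, measured 2826, 2223, 2511, 2393 and 2358 normalized counts in WT males and 2244, 2056, 2010.4, 1879.5 and 1944 in heterozygous males, a change of -0.28 ± 0.06 (SE; limma adjusted p = 0.000693). All 5 heterozygous males were below the WT mean, and 1 of them overlapped the WT range. Of the ITAM group, Inpp5d (the phosphatase SHIP1, a brake on this signalling) measured 474, 397, 425, 407 and 386 in WT and 378, 400.1, 264, 279 and 328 in heterozygous males, a change of -0.36 ± 0.10 (SE; limma adjusted p = 0.00469). Trem2, a lipid-sensing receptor, changed by -0.31 ± 0.12 (SE; limma adjusted p = 0.0370), and its adaptor Tyrobp by -0.22 ± 0.08 (SE; limma adjusted p = 0.0284). Of the lysosomal genes, Ctss measured 2158, 1550.5, 1565, 1589 and 1517 in WT and 1400.4, 1399, 1349.9, 1408 and 1463 in heterozygous males, a change of -0.24 ± 0.07 (SE; limma adjusted p = 0.00820), and did not overlap. Laptm5, a lysosomal membrane protein, changed by -0.23 ± 0.07 (SE; limma adjusted p = 0.00567). None of the 3 C1q chains passed the limma test, with changes from -0.19 (C1qc) to -0.13 (C1qb). Sall1 was the member that rose, from 859, 518, 623, 621 and 618 in WT to 928, 1337, 3109, 2771 and 2056 in heterozygous males, a change of 1.54 ± 0.34 (SE; limma adjusted p = 0.000705) without overlap.

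Genes of other tissue moved with this contrast. The mean deviation of 10 olfactory bulb genes (Doc2g, Cdhr1, Th, Calb2, Eomes, Tbx21, Sp8, Shisa8, Pax6 and Nmb) ran from -2.75 to -0.50 in WT vehicle males and from -0.09 to 2.35 in heterozygous vehicle males on the log2 scale, and did not overlap. That of 4 neuronal genes ran from -0.06 to 0.23 in WT and from -0.57 to 0.10 in heterozygous males. In vehicle males the amount of these bulb transcripts and the genotype cannot be told apart. With the bulb list as a covariate, 0 of 29 members passed in males by limma, and 1175 of 17901 genes had an unadjusted p under 0.05. The change of Sall1 became 0.10 and that of Inpp5d -0.08, while Itgam was at -0.44, Ptprc at -0.46 and Trem2 at -0.36, with limma adjusted p of 0.739 each. WT vehicle male 1 had the highest mean deviation over the members of all 59 libraries, 0.42, with 28 of 29 members above their mean over all libraries. Without it 7 members passed in males, and Trem2, Tyrobp and Ctss did not. Trem2 also lost its call without heterozygous male 3 or 4 or WT male 3 or 4, and Tyrobp without heterozygous male 4. None of the 3 passed when only the vehicle males were fitted, nor Trem2 with TMM factors. Leaving out the 2 libraries that stand apart gave 16, with 15 of them lower.

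In vehicle females 0 of 29 members passed by limma, as for 0% of all genes tested. At an unadjusted p under 0.05 there was 1 member, Ly86, a partner of the Toll-like receptor homologue RP105, with a log2 change of -0.22 ± 0.08 (SE; limma adjusted p = 1), and edgeR also called 0. The members' median change was 0.01 in females and -0.23 in males. For males the median of all genes is given below with the signals between neurons and microglia. The difference between the sexes' genotype changes, female minus male, was tested directly and passed for 5 of 29 members, a share near the 16.0% of all genes. It was 0.38 ± 0.09 (SE; limma adjusted p = 0.0166) for Csf1r, 0.55 ± 0.17 (SE; limma adjusted p = 0.0266) for Trem2, 0.44 ± 0.14 (SE; limma adjusted p = 0.0299) for Inpp5d and 0.29 ± 0.09 (SE; limma adjusted p = 0.0306) for Laptm5. For Sall1 it was -1.53 ± 0.48 (SE; limma adjusted p = 0.0263). Csf1r measured 2187, 2134, 2208, 2029.8 and 2291 normalized counts in WT and 2515, 2094, 2398, 2389 and 2228 in heterozygous females, and Trem2 236, 189.6, 219.8, 241 and 215 and 316, 227, 251, 249 and 257. These ranges overlapped in both genes. Leaving out heterozygous vehicle male 3 or 4, or WT vehicle female 4, left 0 members with a difference between the sexes, and the bulb covariate also left 0. Leaving out the 2 libraries that stand apart gave 9, for which the share of all genes in that fit is not given here.

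**Figure D3:**
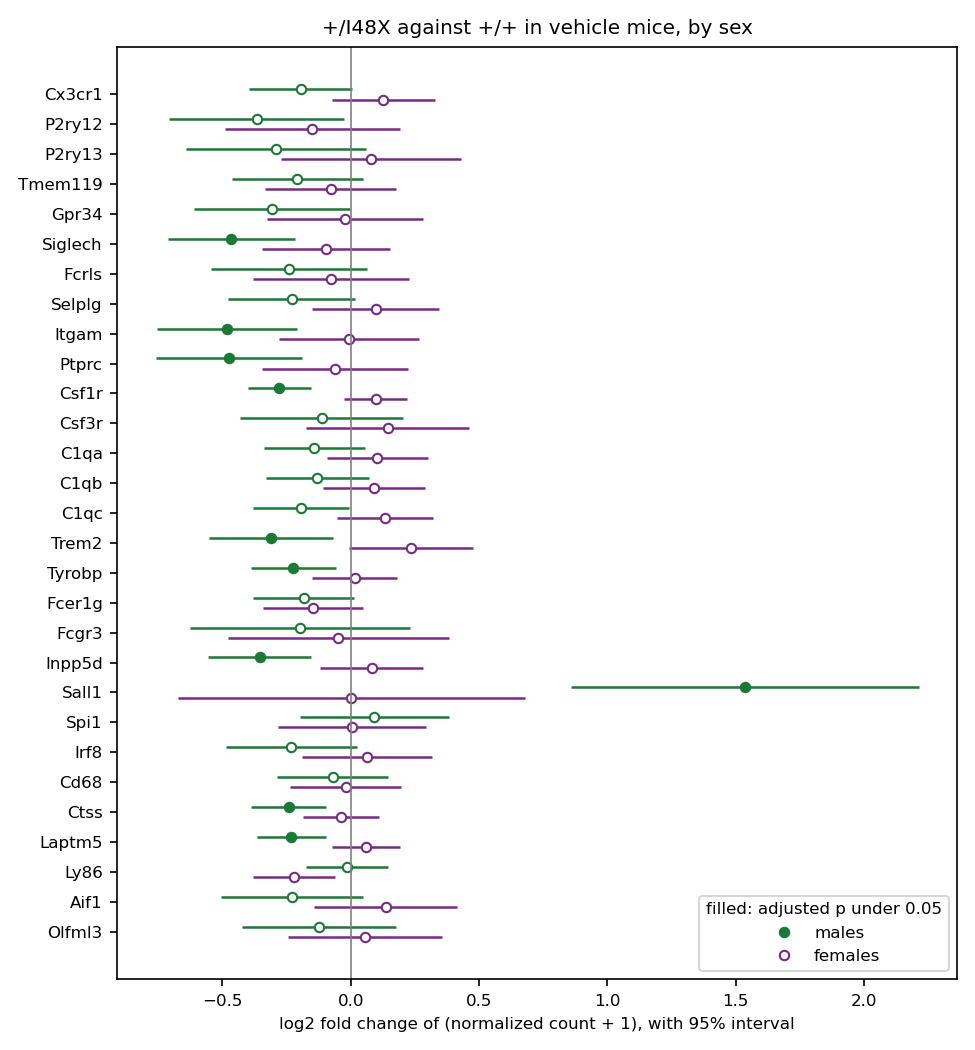
Log2 fold change of heterozygous against WT vehicle mice with its 95% interval for each member, in males (green) and females (purple), 5 mice a group; filled points passed the limma test. In males 9 filled points lie left of 0 and Sall1 lies right, and no female point is filled.

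Sall1 followed the olfactory bulb genes across the whole series. It ranged from 518 to 3109 normalized counts, and within groups it rose by 0.41 ± 0.02 (SE) on the log2 scale per unit of the bulb list's mean (limma adjusted p = 9.1e-23). Inpp5d fell by 0.08 ± 0.01 per unit (limma adjusted p = 8.3e-06), and Cd68, a lysosomal glycoprotein of phagocytes, fell by 0.05 (limma adjusted p = 0.0366). These were 3 of 29 members, against 50.0% of all genes tested. When the 2 libraries that stand apart were left out, the slope of Sall1 was 0.41 and 12 members had a negative slope that passed, among them Selplg, P2ry13 and P2ry12, where 55.7% of all genes passed in either direction. The members' share was below that of all genes in both forms. Sall1 is kept in the member counts by the rule that chose the genes.

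**Figure D4:**
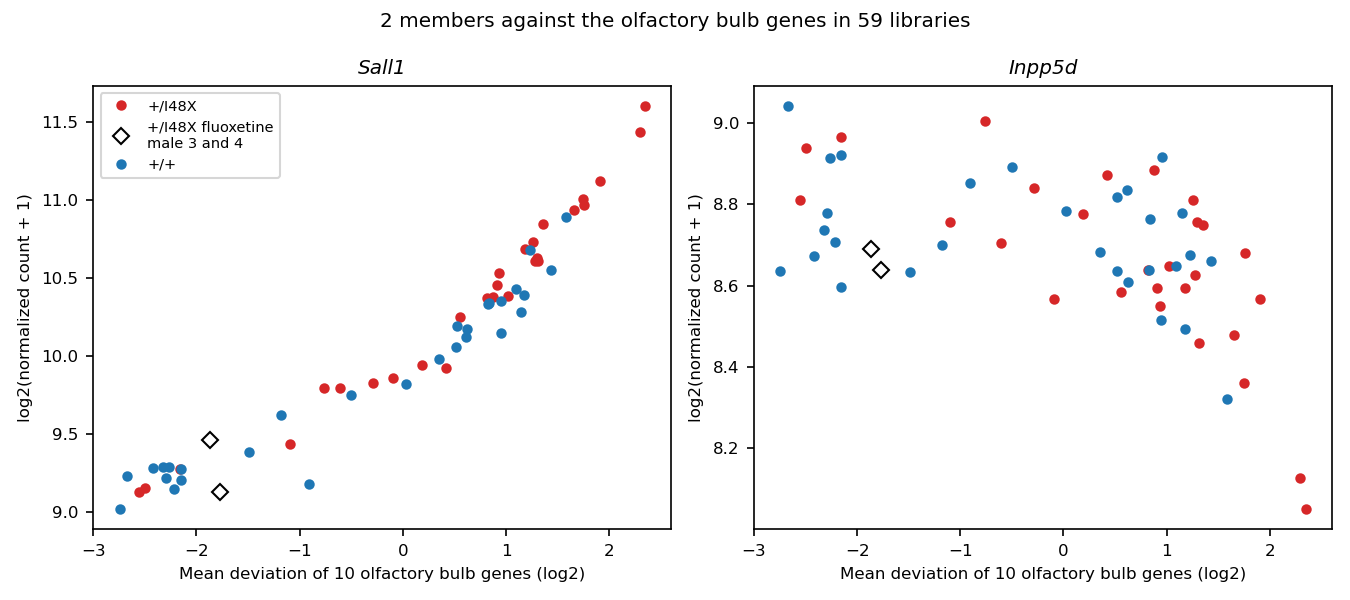
Log2(normalized count + 1) of Sall1 and Inpp5d against the mean deviation of 10 olfactory bulb genes, 1 point for each of 59 libraries; blue is WT, red heterozygous, and open diamonds the 2 libraries that stand apart. Sall1 rises along the whole axis, and Inpp5d is lowest in the 2 libraries with the most bulb transcript.

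Under lithium and under fluoxetine no member passed the test between genotypes. In lithium mice 0 of 29 members passed by limma, against 0.0112% of all genes, with 1 member at an unadjusted p under 0.05 and 0 by edgeR. In fluoxetine mice 0 passed by limma, against 0.0112% of all genes, with 7 at an unadjusted p under 0.05 and 0 by edgeR. Without heterozygous fluoxetine male 5, 3 members passed there. The members' median genotype change was 0.02 under lithium and -0.01 under fluoxetine. These fluoxetine values include the 2 libraries that stand apart. Averaged over the 3 treatments, 3 members fell and 1 rose in heterozygous mice, against 21.4% of all genes. Itgam changed by -0.23 ± 0.06 (SE; limma adjusted p = 0.00918), Siglech by -0.16 ± 0.05 (SE; limma adjusted p = 0.0256), Fcrls by -0.17 ± 0.06 (SE; limma adjusted p = 0.0475) and Sall1 by 0.41 ± 0.14 (SE; limma adjusted p = 0.0322). Of the 30 heterozygous mice 25 lay below the WT mean for Itgam, 21 for Siglech and 20 for Fcrls. With the 2 libraries left out, Itgam (-0.15) and Sall1 (0.46) passed and Siglech and Fcrls did not. With the bulb list as a covariate 0 members passed by limma, and the bulb genes' median change in this comparison was 0.78, with 1 of 10 higher and 0 lower by the test. Sall1 was not called without heterozygous lithium female 3, lithium male 1, vehicle male 3 or 4 or WT vehicle female 5, and Fcrls was not called in 40 of the 59 fits that leave out 1 library. These comparisons share their vehicle mice with those above and are not independent of them.

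Fluoxetine in heterozygous mice raised 2 members, Ctss and Cd68, both lysosomal, against 4.27% of all genes. Ctss ran from 1274 to 1474 with a median of 1399.8 normalized counts in 10 vehicle mice and ran from 1325 to 2259 with a median of 1579 in 10 fluoxetine mice, a log2 change of 0.23 ± 0.05 (SE; limma adjusted p = 0.0106). Of the fluoxetine mice 9 lay above the vehicle mean. For Cd68 the lowest, median and highest values were 124, 148 and 179 under vehicle and 142, 179.6 and 235 under fluoxetine, a change of 0.26 ± 0.08 (SE; limma adjusted p = 0.0362), and 7 of 10 mice lay above the vehicle mean. The ranges overlapped for both genes. Without the 2 libraries that stand apart neither passed: the change was 0.16 ± 0.05 (SE; limma adjusted p = 0.149) for Ctss and 0.20 ± 0.08 (SE; limma adjusted p = 0.299) for Cd68. Neither passed when only the groups compared were fitted, and Cd68 was not called in 9 of 20 fits that leave out 1 mouse, namely fluoxetine females 3 and 5, fluoxetine males 3 and 4, vehicle females 1, 2 and 3 and vehicle males 3 and 4. The receptor genes turned with those libraries as well. P2ry12 changed by -0.16 with them and 0.12 without, Itgam by -0.22 and -0.00, Olfml3 by -0.28 and -0.03, and Fcgr3 by 0.41 and 0.02. None of these passed the limma test in either form.

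**Figure D5:**
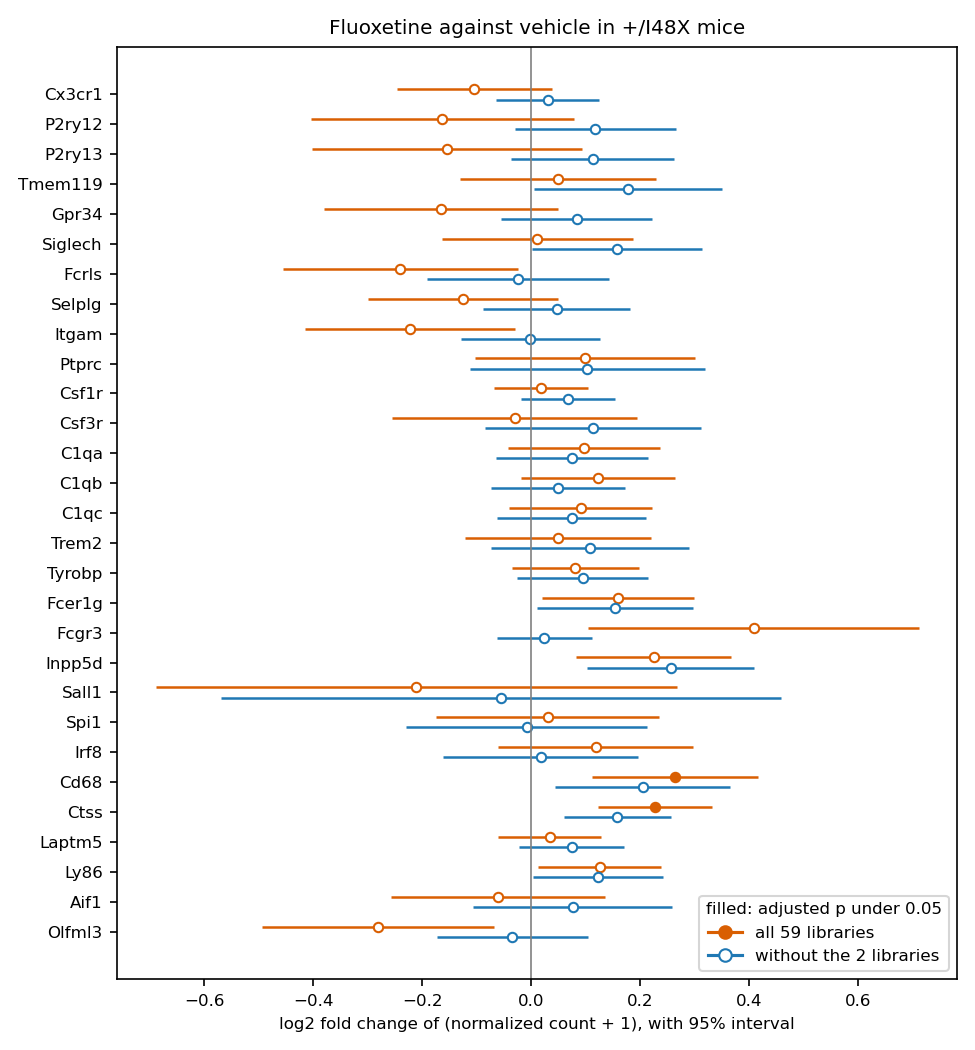
Log2 fold change of fluoxetine against vehicle in heterozygous mice with its 95% interval for each member, with all 59 libraries (orange) and without replicates 3 and 4 of the heterozygous fluoxetine males (blue); filled points passed the limma test. Ctss and Cd68 are filled with all libraries only, and Fcgr3 and P2ry12 move most between the 2 forms.

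In WT mice fluoxetine raised or lowered 0 of 29 members by limma, against 0.447% of all genes, with 2 at an unadjusted p under 0.05 and 0 by edgeR. Over both genotypes 1 of 29 members passed, a share near the 3.09% of all genes. Inpp5d rose by 0.18 ± 0.05 (SE; limma adjusted p = 0.0417), and 15 of 19 fluoxetine mice lay above the vehicle mean. Its lowest, median and highest values were 319, 402 and 474 in WT vehicle, 400.2, 438 and 483 in WT fluoxetine, 264, 381 and 448 in heterozygous vehicle and 374, 414 and 513 in heterozygous fluoxetine mice. The ranges overlapped in each genotype. Lithium gave the same single member over both genotypes, also a share near that of all genes (2.12%). Inpp5d rose by 0.19 ± 0.05 (SE; limma adjusted p = 0.0327), and 14 of 20 lithium mice lay above the vehicle mean. Its values under lithium were 365, 426 and 526 in WT and 356, 442 and 499 in heterozygous mice. Both drug comparisons use the same vehicle mice. In the fit that leaves out the 2 libraries, the changes were 0.19 ± 0.05 (SE; limma adjusted p = 0.0361) for fluoxetine and 0.19 ± 0.05 (SE; limma adjusted p = 0.0208) for lithium. With the bulb list as a covariate they were 0.24 ± 0.04 (SE; limma adjusted p = 0.000304) and 0.18 ± 0.04 (SE; limma adjusted p = 0.00356). The fluoxetine call was lost with the replicate block, when only the groups compared were fitted, and in 20 of 39 fits that leave out 1 library. The libraries were vehicle heterozygous females 2, 3 and 5 and males 3 and 4, vehicle WT females 1 and 4 and males 2, 3, 4 and 5, fluoxetine heterozygous females 1, 2 and 4 and male 4, and fluoxetine WT females 1, 3 and 4 and males 3 and 4. The lithium call was lost in 11 of 40, without vehicle heterozygous female 2 or male 3 or 4, vehicle WT female 4 or male 5, lithium heterozygous female 1 or 2 or male 5, or lithium WT female 3 or 4 or male 2. The change stayed above 0 in each of these fits.

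Within each genotype lithium called no member. In heterozygous mice 0 of 29 passed by limma, against 0.497% of all genes, with 3 at an unadjusted p under 0.05 and 0 by edgeR, and the median change was 0.09. In WT mice 0 passed, against 0.162% of all genes, with 2 at an unadjusted p under 0.05 and 0 by edgeR, and the median was -0.05. The difference between those lithium effects passed for 0 members by limma (0% of all genes, 3 members at an unadjusted p under 0.05, 0 by edgeR). The difference between the fluoxetine effects also passed for 0 (0% of all genes, 5 members at an unadjusted p under 0.05, 0 by edgeR). Between females and males over all groups 0 members passed, against 0.156% of all genes, with 2 at an unadjusted p under 0.05 and 0 by edgeR.

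The signals between neurons and microglia were read from a separate list of 10 genes. In vehicle mice 2 of 10 fell in heterozygotes, with log2 changes of -0.20 ± 0.06 (SE; limma adjusted p = 0.0268) for Cd200 and -0.14 ± 0.05 (SE; limma adjusted p = 0.0435) for Sirpa, and 0 rose, against 13.1% of all genes tested. Cd200 is a neuronal ligand that restrains microglia, and Sirpa binds Cd47. In vehicle males 5 of 10 fell and 1 rose, against 36.7% of all genes. Cx3cl1 (fractalkine, the ligand of Cx3cr1) measured 22075, 24906, 23755, 22919.9 and 24512 normalized counts in WT males and 23261, 20209.9, 15269, 16242 and 18392 in heterozygous males, a change of -0.35 ± 0.08 (SE; limma adjusted p = 0.000682). Il34, the neuronal ligand of Csf1r, changed by -0.46 ± 0.13 (SE; limma adjusted p = 0.00419). Over all treatments 4 of 10 fell and 0 rose, against 21.4% of all genes. Without the 2 libraries that stand apart 5 fell and 0 rose, and the share of all genes in that fit is not given here. The list's median change was -0.17 in vehicle males beside -0.01 for all genes tested. With the bulb list as a covariate 0 of these 10 genes passed by limma between genotypes under vehicle, in vehicle males or over all treatments, and the change of Cx3cl1 in males was -0.11. Neither did any of the 35 other microglia genes or the 16 disease-associated genes described next. In vehicle males 0, 3 and 4 genes of these 3 lists had an unadjusted p under 0.05 in that fit.

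Of 35 other microglia genes, 5 fell and 0 rose between genotypes in vehicle mice, near the 13.1% of all genes, and in vehicle males 9 fell and 2 rose, a smaller share than the 36.7% of all genes. Mertk, a receptor for the engulfment of dying cells that astrocytes also express, measured 1351, 1231, 1259.5, 1234 and 1104 normalized counts in WT and 931, 1031, 597, 616 and 821 in heterozygous males, a change of -0.66 ± 0.12 (SE; limma adjusted p = 0.000377) without overlap. Under fluoxetine in heterozygous mice 6 of the 35 rose and 0 fell, against 4.27% of all genes, led by Mertk (0.39 ± 0.08 (SE; limma adjusted p = 0.00537)), Tlr7 (0.52 ± 0.12 (SE; limma adjusted p = 0.0124)) and Cd14 (0.54 ± 0.13 (SE; limma adjusted p = 0.0156)). Tlr7, a sensor of single-stranded RNA, and Cd14, a receptor for bacterial lipopolysaccharide, stood at 406 and 167 normalized counts in heterozygous fluoxetine male 3, above all 57 libraries other than replicates 3 and 4. When those 2 libraries were left out 1 of the 35 rose, Mertk, by 0.38 ± 0.09 (SE; limma adjusted p = 0.0307), and the changes were 0.38 for Tlr7 (limma adjusted p = 0.0860) and 0.36 for Cd14 (limma adjusted p = 0.127). Lithium in heterozygous mice raised 1 of the 35, against 0.497% of all genes. This was Mertk, by 0.48 ± 0.08 (SE; limma adjusted p = 0.000836), and it passed without the 2 libraries as well. The lithium and fluoxetine comparisons use the same heterozygous vehicle mice and are not independent.

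Of the 16 disease-associated microglia genes, 1 rose and 1 fell between genotypes in vehicle mice, near the 13.1% of all genes. Spp1 (osteopontin) changed by 0.76 ± 0.26 (SE; limma adjusted p = 0.0431) and Lpl (lipoprotein lipase) by -0.43 ± 0.15 (SE; limma adjusted p = 0.0435). In vehicle males 5 rose and 3 fell, against 36.7% of all genes, and over all treatments 4 rose and 1 fell, against 21.4%. The counts over all treatments were the same without the 2 libraries that stand apart. Of 10 border macrophage genes, Lyve1, a hyaluronan receptor of perivascular macrophages, rose under fluoxetine in heterozygous mice by 0.56 ± 0.10 (SE; limma adjusted p = 0.00212) and under lithium by 0.46 ± 0.10 (SE; limma adjusted p = 0.0218). Of all genes tested 4.27% were called in that fluoxetine comparison and 0.497% in that lithium comparison. Both use the same heterozygous vehicle mice. Lyve1 ran from 45.2 to 73.3 with a median of 52.3 normalized counts in heterozygous vehicle mice and ran from 61.7 to 114 with a median of 81.3 in heterozygous fluoxetine mice. Without the 2 libraries the fluoxetine values ran from 61.7 to 93.3 with a median of 81.3, and the change was 0.55 ± 0.11 (SE; limma adjusted p = 0.00351). Over both genotypes fluoxetine raised 3 of the 10, Lyve1, Cd163 and Siglec1, and lowered 0, against 3.09% of all genes. With both libraries left out Lyve1 and Cd163 passed and Siglec1 did not (0.55, limma adjusted p = 0.0762). Dyrk1a RNA was not lower in the mice labelled heterozygous: it measured 2195 ± 57.4 (SD, n = 29) normalized counts in WT and 2422 ± 393 (SD, n = 30) in heterozygous mice, where 27 of 30 lay above the WT mean. Its genotype change was 0.06 ± 0.05 (SE; limma adjusted p = 0.451) under vehicle, 0.23 ± 0.05 (SE; limma adjusted p = 0.113) under fluoxetine and 0.13 ± 0.03 (SE; limma adjusted p = 0.00768) over all treatments. Replicates 3 and 4 of the heterozygous fluoxetine males stood at 4214 and 3278. The other 28 heterozygous mice measured 2328 ± 101 (SD), and without those 2 libraries the change over all treatments was 0.09 ± 0.01 (SE; limma adjusted p = 0.000290).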

How the data were processed

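Poly(A) RNA from the prefrontal cortex of 59 mice was sequenced with a kit that keeps strand, per the labels' protocols. The submitters' processing notes name GRCm38, DESeq2 1.19.11, Salmon 0.11.2 and R 3.6.0 without their roles. The values the authors deposited are a normalized signal, which is each gene's count scaled by the library's size factor, for 18088 genes; 0 columns lacked a sample. Dividing by each library's smallest step gave whole counts (within 0.01) for 100% of values, although in 3 libraries the step was too close to 1 to show this. Recovered totals ran from 24391022 to 33842466 counts, median 27601196. All replicate pairs within groups differed by more than sampling noise.

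Genes reaching 10 in 4 or more libraries, 17901 in all, were tested with limma 3.58.1 in R 4.3.3 on the means of 12 groups (47 residual degrees of freedom, trend on the mean). The scale was log2(value + 1), so that changes of low genes are understated. Benjamini-Hochberg adjustment ran over all genes within each of 16 comparisons (threshold 0.05). Averages over sexes weight both equally. The step was tested on simulated counts. The 29 members and all lists were chosen with earlier results of these data known. All members are named; of other lists, counts are given with up to 3 called genes of smallest adjusted p, and Dyrk1a was added as a check of the labels. One gene that this rule names is not reported here. The genes given for the 2 libraries that stand apart, Tlr7 and Cd14 there included, were chosen after their values were seen. Replicate numbers did not pair mice. Alternatives were a pseudocount of 5, no filter, TMM factors, a replicate block, only the groups compared, edgeR 4.0.16 on recovered counts, each library left out, both libraries left out, and an olfactory bulb covariate; the slope on that list and the covariate without both libraries were added after seeing the data. Gene positions and exon lengths are from GENCODE M21 and promoters from RefSeq for GRCm38.p6, both of the submitters' build.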

Additional observations from a re-analysis of the deposited data

Results flagged for a closer look

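Of 348 sets of 4 or 5 mice (29 members in 12 groups), 18 held 1 mouse far from the others of its group, about the 1 in 20 that chance gives. WT vehicle male 1 was the highest of its group for Csf3r (182 normalized counts), Tyrobp (396) and Ctss (2158). Heterozygous fluoxetine male 3 was the highest for C1qb (1662) and Fcgr3 (1904), and it is 1 of the 2 libraries that stand apart. WT vehicle female 4 was the lowest for P2ry12 (1177) and Gpr34 (299). Heterozygous lithium female 1 was the highest for Selplg (695) and Csf1r (2535). Heterozygous lithium male 2 was the lowest for Csf1r (2096) and Fcer1g (155), and male 5 the highest for Tyrobp (305). Among heterozygous vehicle females, replicate 1 was the highest for C1qa (989), replicate 2 the lowest for Laptm5 (712) and replicate 5 the lowest for Ptprc (82.6). In the other WT groups, the highest values that stood apart were Itgam in lithium female 3 (654), Ctss in lithium male 4 (1529) and C1qa in fluoxetine male 4 (1029).

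The genotype change in vehicle females minus that in vehicle males passed the limma test for 5 members: Csf1r (0.38 on the log2 scale), Trem2 (0.55), Inpp5d (0.44), Laptm5 (0.29) and Sall1 (-1.53). The olfactory bulb genes moved with the male contrast, and in vehicle males the amount of their transcripts and the genotype cannot be told apart.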

How the results depend on the processing

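The counts are members called of 29. The shares of all genes called in these alternative fits are not given, apart from that for the slope on the bulb list. Without both heterozygous fluoxetine males 3 and 4 they became 7 for genotype under vehicle (from 2), 16 in vehicle males (from 10), 9 for genotype by sex (from 5), 2 for genotype over all treatments (from 4), 2 for lithium over both genotypes (from 1), 0 for fluoxetine in heterozygous mice (from 2) and 13 for the slope on the bulb list (from 3). With the bulb covariate they became 0 for genotype under vehicle, in vehicle males, over all treatments and by sex, 1 for lithium in heterozygous and 1 for fluoxetine in WT mice (both from 0) and 2 for fluoxetine over both genotypes (from 1). The covariate without both libraries also gave 0 for those 4 genotype results, 1 each for lithium in heterozygous mice, lithium in WT mice, fluoxetine in heterozygous mice and fluoxetine in WT mice, and 2 for lithium over both genotypes, and a median member change of -0.09 in vehicle males (from -0.23). Fitting only the groups compared gave 0 for genotype under vehicle, genotype by sex, fluoxetine in heterozygous mice and fluoxetine over both genotypes, and 1 for fluoxetine in WT mice. EdgeR gave 4 for fluoxetine in heterozygous mice. The cause of these shifts was not tested, apart from the smaller spread without both libraries.

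With the replicate block, fluoxetine over both genotypes called 0 members (from 1), and no other count changed. Same-numbered mice did not deviate together (median correlation -0.00 over 319 pairs), and 8 of 59 libraries correlated best with their own number.

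With 1 library left out in turn, the counts ran from 0 to 5 for genotype under vehicle, 2 to 5 over all treatments, 7 to 11 in vehicle males, 0 to 7 by sex, 0 to 3 under fluoxetine, 1 to 7 for fluoxetine in heterozygous mice, 0 to 4 for fluoxetine over both genotypes, 0 to 1 for lithium in heterozygous mice, lithium over both genotypes and fluoxetine by genotype, and stayed 0 in the other 6 comparisons. No called member changed sign under any alternative run. Of the member values, 1195 kept their side of the threshold, 211 fell short of it and 54 newly passed it. Counting error made up 23.0% of the within-group variance on the log2 scale for the median member without both libraries, and the larger part for 6 of 29: Fcgr3 (90.1%), Ly86, Fcer1g, Irf8, Aif1 and Spi1. No alternative moved the median of all genes by 0.1.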
